A study of Drosophila melanogaster with 14 samples.

Results

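The change of gene expression from embryonic stages 10-13 to stages 14-17 was compared between mesodermal and neuronal nuclei of Drosophila melanogaster. The contrast was a difference of differences on the log2 scale, with the neuronal stage change subtracted from the mesodermal stage change. A positive value therefore means a larger rise, or a smaller fall, in mesoderm. It used the 8 wild-type libraries of the 14 in the series, 2 for each tissue and stage. Each gene was then described by the sign of its change in each tissue. Of 14156 genes in the wild-type tables, 10549 had enough counts to be tested.

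Nuclei had been pulled out of embryos by INTACT, in which a tag on the nuclear envelope is expressed in a chosen tissue and bound by an affinity reagent. The mesodermal libraries carry the genotype twi-INTACT, in which twi drives the tag. The neuronal libraries carry elav>INTACT, in which elav drives it. No other allele or treatment is listed for these 4 groups. The other 6 libraries, mesodermal nuclei with GFP-tagged Ubx, are not analysed here.

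At stages 10-13 the fly mesoderm is split into muscle, heart, fat body and blood cell precursors by transcription factors such as Twist, Tinman and Mef2, and myoblasts fuse into syncytial fibres. At stages 14-17 those fibres build sarcomeres and attach to tendon cells. In the nervous system neuroblasts divide early, and their daughters later grow axons, form synapses and express ion channels, while the epidermis around both tissues secretes the larval cuticle at the end of embryogenesis.

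Assigned counts per library ranged from 12970816 to 17905141 in mesoderm and from 27924215 to 36150646 in neuronal nuclei. Levels are given as CPM, counts divided by the TMM-normalised library size and scaled to a common total, and are not corrected for gene length. No label states that the replicates are separate embryo collections, and a p-value here reflects only how far these libraries lie apart, which may be technical. Median absolute log2 differences between replicates ranged from 0.193 in mesoderm at stages 10-13 to 0.431 in neuronal nuclei at stages 14-17. Counts of mitochondrial genes took 0.874 to 1.51% of the mesodermal libraries and 1.78 to 6.94% of the neuronal ones, with 6.94% in replicate 2 of the neuronal stages 14-17.

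The tissue labels were compared with marker levels first. The 7 mesoderm markers twi, Mef2, tin, bap, lmd, sns and Mhc summed to 4690 and 5725 CPM in mesoderm at stages 10-13 and to 13889 and 14318 CPM at stages 14-17, against 2189 to 3142 CPM in the neuronal libraries. Mhc made up most of the later mesodermal and of the neuronal sums. It was at 628 and 926 CPM in mesoderm early, 11273 and 11837 CPM late, and 1823 to 2784 CPM in the neuronal libraries. Of the other markers, Mef2, tin, bap, lmd and sns were lower in the later mesodermal libraries and twi was higher. The 8 neuronal markers elav, fne, Syt1, nSyb, brp, futsch, ChAT and VGlut summed to 760 and 520 CPM in the neuronal libraries of stages 10-13 and to 811 and 592 CPM at stages 14-17. In mesoderm the same markers summed to 227 and 258 CPM at stages 10-13 and to 1034 and 782 CPM at stages 14-17. The later mesodermal libraries thus lay within or above the range of the neuronal libraries for these markers. The counts cannot settle elav itself, at 0.0334 to 0.344 CPM in every library, because 98.6% of its span is overlapped by other genes and 1946 of 2106 genes lying inside another gene (92.4%) had no counts at all.

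Cuticle RNA followed the neuronal label at the early stage. The Tweedle family of cuticle proteins summed to 5330 and 5766 CPM in the neuronal libraries of stages 10-13 and to 473 and 423 CPM in those of stages 14-17. In mesoderm the family summed to 181 and 26.4 CPM early and to 1251 and 1040 CPM late. Cuticle proteins are made at the end of embryogenesis, and here the neuronal libraries labelled with the earlier stage held the most of their RNA. The Osiris family, by contrast, summed to more in the neuronal libraries labelled with the later stage, 7273 and 13049 CPM against 3202 and 4291 CPM. Every neuronal sign below rests on the stage labels of these libraries, and whether those labels hold was not tested. Among the neuronal libraries of stages 14-17, the midgut list summed to 576 CPM in replicate 1 and 2868 CPM in replicate 2. Replicate 1 of that group had a Spearman correlation across genes of 0.933 and 0.939 with the later mesodermal libraries, 0.937 with its own replicate, and 0.892 and 0.903 with the earlier neuronal libraries. The tissue and stage names below follow the labels, and what part these levels have in the differences was not tested. Because each library is a bulk sample, fewer nuclei of a type and less RNA per nucleus cannot be told apart.

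The stage change differed between the tissues for 3730 of the 10549 genes (35.4%) by the quasi-likelihood test of edgeR, at a Benjamini-Hochberg adjusted p under 5%. The difference was positive for 2175 genes (20.6%) and negative for 1555 (14.7%). Mesoderm by itself had 5027 genes called with stage (47.7%), 2629 up (24.9%) and 2398 down (22.7%). The neuronal libraries had 2154 (20.4%), 893 up (8.47%) and 1261 down (12%). The median absolute log2 change was 0.85 in mesoderm and 0.51 in the neuronal libraries. Across genes the 2 stage changes were close to unrelated, with a Spearman correlation of 0.08, given as a description since genes of a library share its depth and composition.

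Single libraries moved these counts. Leaving one out leaves its group with 1 library, which is then assumed to vary like the other groups. Without replicate 1 of the later mesodermal libraries 2000 genes were called for the difference, and without replicates 1 and 2 of the earlier ones 2427 and 2464 were called. Negative differences numbered 784, 834, 595, 966, 1018 and 2478 when, in turn, either earlier mesodermal replicate, either later mesodermal replicate, replicate 1 of the earlier and replicate 1 of the later neuronal libraries was left out. Positive differences numbered 1405 without replicate 1 of the later mesodermal libraries. The mesodermal stage change alone gave 3334 calls without replicate 2 of the earlier and 2862 without replicate 1 of the later mesodermal libraries. The neuronal stage change gave 1234 and 1236 calls without replicates 1 and 2 of the later mesodermal libraries, 386 and 1084 without replicates 1 and 2 of the earlier neuronal libraries, and 4231 without replicate 1 of the later ones.

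By calls, the largest group among the 2175 positive differences was the 1173 genes called up in mesoderm alone, followed by 522 called up in mesoderm and down in neuronal nuclei. By the sign of the fitted values, called or not, 1676 (77.1%) were positive in mesoderm and negative in neuronal nuclei, against 23.9% of all tested genes, a pair of signs that a positive difference itself favours. Of the others 426 were positive in both and 73 negative in both. Of the 1555 negative differences, 987 (63.5%) were negative in mesoderm and positive in neuronal nuclei, 523 were negative in both and 45 positive in both. Among all tested genes, whether or not the difference was called, 1170 had a stage change called in each tissue. Of these, 579 (49.5%) moved in opposite directions. Those 579 divide unevenly into 522 that rose in mesoderm and fell in neuronal nuclei (4.95% of genes tested) and 57 that fell in mesoderm and rose in neuronal nuclei (0.540%).

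**Figure D1:**
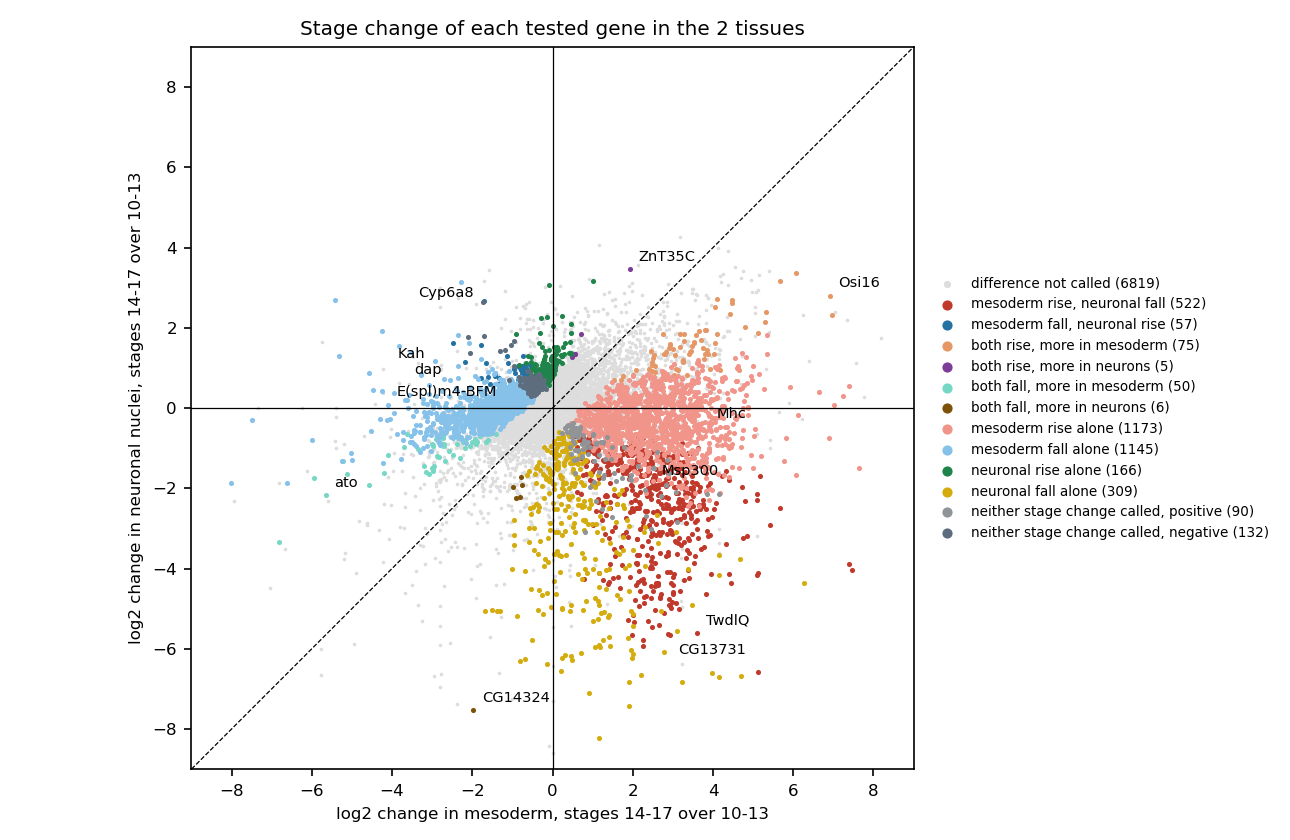
Each point is 1 of the 10549 tested genes, with its log2 change from stages 10-13 to 14-17 in mesoderm on the x axis and in neuronal nuclei on the y axis. Colours give the classes by calls in each tissue, the dashed line marks equal change, and the 522 genes that rose in mesoderm and fell in neuronal nuclei fill the lower right while the 57 with the reverse pattern lie near the origin at upper left.

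The 522 genes that rose in mesoderm and fell in neuronal nuclei had a median log2 change of 2.46 in mesoderm and -2.12 in neuronal nuclei. Their median level went from 4.89 to 24.6 CPM in mesoderm and from 72.7 to 13.5 CPM in neuronal nuclei. For 400 of the 522 the earlier neuronal group was the highest of the 4, and for 122 it was the later mesodermal group. These genes were long, with a median annotated span of 5.72 kb against 2.64 kb for all tested genes. The class held 256 and 286 genes without replicates 1 and 2 of the later mesodermal libraries, 138 and 282 without replicates 1 and 2 of the earlier neuronal ones, and 871 without replicate 1 of the later neuronal ones.

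The 5 with the largest difference and at least 10 CPM in 1 group were TwdlQ, CG7406, CG13731, CG10953 and CG7548. TwdlQ (FBgn0039448), a Tweedle cuticle protein gene at 3R 26692546 to 26693590 on the minus strand, was at 0.748 and 0.175 CPM in mesoderm at stages 10-13 and at 6.27 and 4.95 CPM at stages 14-17. In neuronal nuclei it was at 140 and 169 CPM early and at 4.36 and 1.94 CPM late. The stages did not overlap in either tissue, and the earlier neuronal libraries stood far above all others. Such separation was common: it held for 83.3% of tested genes in mesoderm and 59.6% in neuronal nuclei. Its change was 3.61 ± 0.61 (log2, SE) in mesoderm and -5.60 ± 0.53 in neuronal nuclei, a difference of 9.22 ± 0.79 (adjusted p = 0.000676, edgeR). CG13731 (3L 17383636 to 17388956, minus strand), which had the highest CPM of the 5, was at 80.7 and 16 CPM in mesoderm early and 380 and 350 CPM late. It was at 4800 and 3133 CPM in neuronal nuclei early and at 82.5 and 75.1 CPM late. Its difference was 8.57 ± 0.99 (adjusted p = 0.00117, edgeR).

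CG10953 followed at 18.7 and 3.84 CPM rising to 86.4 and 80.1 CPM in mesoderm and 1768 and 1493 CPM falling to 37.6 and 28.6 CPM in neuronal nuclei, a difference of 8.51 ± 0.91. CG7406 differed by 8.80 ± 1.23, with 149 and 619 CPM in the earlier neuronal libraries, which lie apart from each other. CG7548 differed by 8.46 ± 1.06 from lower levels, 0.374 and 0 CPM in mesoderm early and 26.5 and 29.3 CPM in neuronal nuclei early, and its fitted difference was 13.69 when replicate 1 of the earlier mesodermal libraries was left out. In all 5 the earlier mesodermal replicate 1 was above replicate 2, the same direction as the Tweedle sum.

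Tweedle and cuticle protein genes made up part of the class. These families were counted after values had been seen. All but 1 of the 20 tested Tweedle genes had a positive difference, 19 in all, and 11 of them rose in mesoderm and fell in neuronal nuclei. Over all tested genes the shares were 20.6% and 4.95%. Of 75 tested genes named Cpr, Ccp or Lcp, 51 had a positive difference and 27 rose in mesoderm and fell in neuronal nuclei, beside the same shares over all genes. Neighbouring genes moved together at some sites: Ccp84Ad, Ccp84Ac, Ccp84Ab and Ccp84Aa (3R 6692732 to 6704903) and TwdlM, TwdlP, TwdlB and TwdlL (3R 26619118 to 26625652) each formed an unbroken run of tested genes of this class.

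The class was not made of cuticle genes alone. Among its members with the highest mean CPM were sls, which encodes a giant titin-like sarcomere protein, Msp300, which encodes a nesprin that anchors nuclei in muscle, and SERCA, the calcium pump of the sarcoplasmic reticulum. The chitin deacetylase gene verm, which is on the cuticle and epidermis list, was among them as well. sls was at 1720 and 2153 CPM in mesoderm early and 8279 and 10241 CPM late, and at 1320 and 1723 CPM in neuronal nuclei early and 764 and 704 CPM late. It was highest in the later mesodermal libraries, and its difference was 3.31 ± 0.37 (adjusted p = 0.00107, edgeR). Msp300 rose from 753 and 1066 CPM to 5044 and 5343 CPM in mesoderm and fell from 2462 and 1900 CPM to 535 and 657 CPM in neuronal nuclei. Its difference of 4.39 ± 0.39 (adjusted p = 0.000744, edgeR) combines a change of 2.51 ± 0.28 in mesoderm and of -1.87 ± 0.27 in neuronal nuclei. SERCA moved less, from 1032 and 888 to 1952 and 1954 CPM in mesoderm and from 1267 and 1220 to 603 and 745 CPM in neuronal nuclei, a difference of 1.91 ± 0.29. verm rose from 212 and 233 to 916 and 869 CPM in mesoderm, while in neuronal nuclei it fell from 2062 and 1617 to 520 and 885 CPM.

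Regulators and signalling genes were in the class as well. Eip74EF, an ETS factor induced by the moulting hormone ecdysone, was at 29.8 and 26.7 CPM in mesoderm early and 90 and 73.8 CPM late, against 153 and 112 CPM in neuronal nuclei early and 16 and 7.29 CPM late. Its difference was 5.04 ± 0.53 (adjusted p = 0.000884, edgeR). jim, a zinc finger gene, went from 11 and 15.9 to 99.6 and 99.2 CPM in mesoderm and from 129 and 93 to 26.5 and 40.2 CPM in neuronal nuclei, a difference of 4.62 ± 0.42. Gadd45, of the stress list, rose from 9.04 and 8.15 to 32.2 and 35.3 CPM in mesoderm and fell from 101 and 93.8 to 20 and 14.6 CPM in neuronal nuclei. Buffy, a Bcl-2 family member, rose from 4.42 in both replicates to 34.9 and 33.9 CPM and fell from 40 in both replicates to 21.1 and 11.5 CPM.

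**Figure D2:**
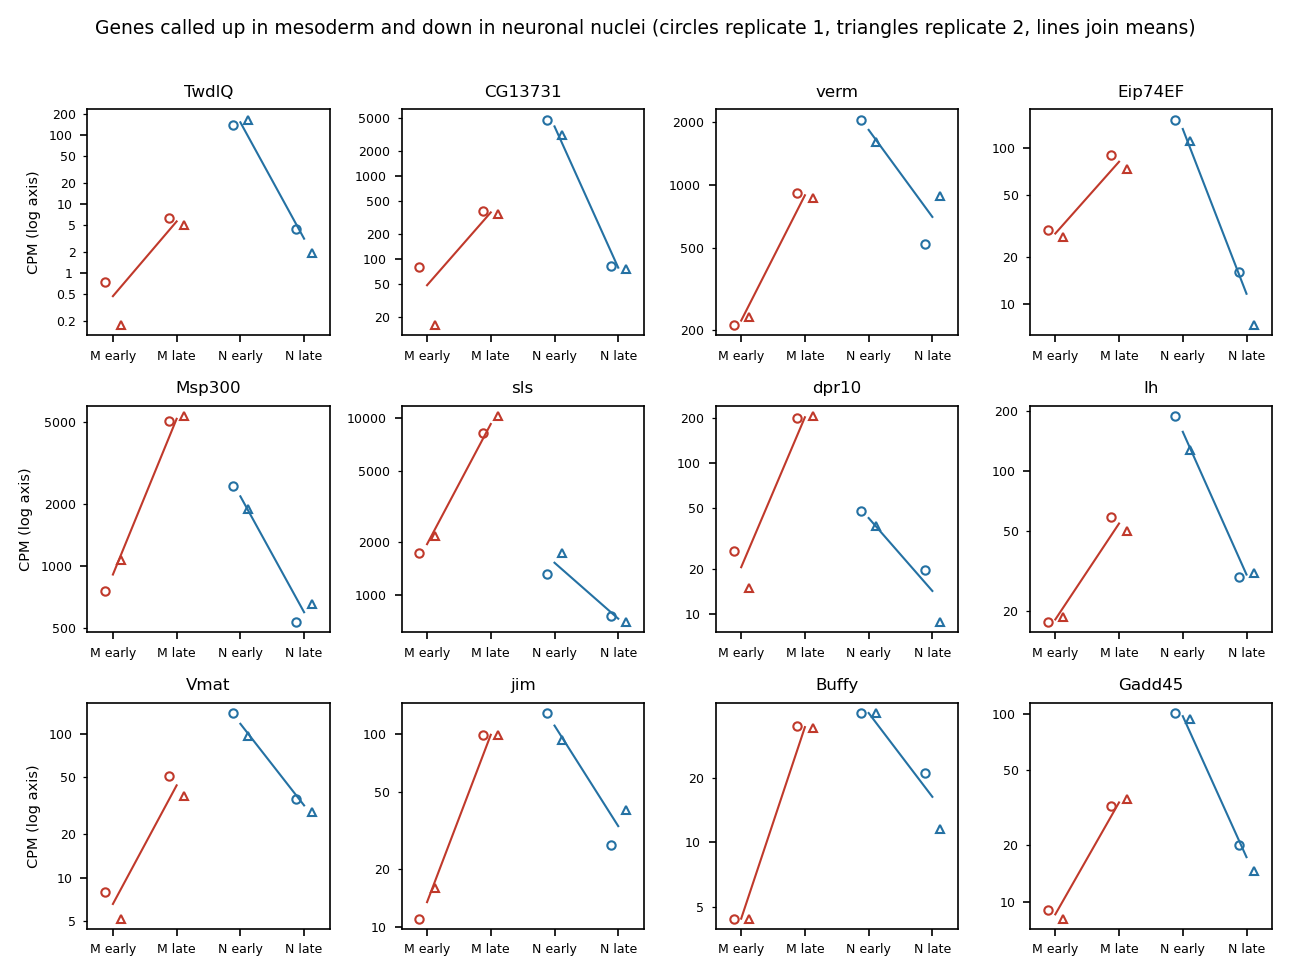
CPM per library on a log axis for 12 genes that rose in mesoderm (M, red) and fell in neuronal nuclei (N, blue), at stages 10-13 (early) and 14-17 (late). Circles are replicate 1, triangles replicate 2 and lines join group means. For TwdlQ and CG13731 the earlier neuronal libraries are highest, while for sls and Msp300 the later mesodermal libraries are.

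The 57 genes with the reverse pattern had smaller changes. Their median log2 change was -0.74 in mesoderm and 0.83 in neuronal nuclei, and their median levels went from 99.5 to 63.4 CPM and from 54 to 91.3 CPM. The earlier mesodermal group was the highest for 30 of them and the later neuronal group for 27. Their median span was 2.57 kb, near that of all tested genes. This count was the least steady of the classes: it was 11, 18, 15 and 14 without, in turn, the earlier and the later mesodermal replicates, 0 and 21 without the earlier neuronal replicates 1 and 2, and 227 and 113 without the later neuronal replicates 1 and 2.

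Cyp6a8, a cytochrome P450 gene, had the largest difference of the class, -4.37 ± 0.74 (adjusted p = 0.00437, edgeR). It fell from 35 and 29.1 to 10.7 and 8.99 CPM in mesoderm and rose from 5.82 and 5.46 to 15.9 and 55.8 CPM in neuronal nuclei, where the 2 later libraries lie far apart. CG18754 differed by -4.11 ± 0.53, with 18.5 and 22.5 CPM falling to 4.21 and 3.15 CPM in mesoderm and 3.28 and 3.01 CPM rising to 13 and 6.52 CPM in neuronal nuclei. Kah, a Snail-family zinc finger gene (3L 582824 to 589274, minus strand), fell from 604 and 504 to 97.8 and 144 CPM in mesoderm and rose from 25.8 and 25 to 52.4 and 60.4 CPM in neuronal nuclei. Despite that rise, the later neuronal libraries stayed below every mesodermal library, and the difference was -3.34 ± 0.32 (adjusted p = 0.000817, edgeR).

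dap, which encodes an inhibitor of cyclin-dependent kinase that stops the cell cycle, was at 507 and 446 CPM in mesoderm early and at 144 and 134 CPM late. In neuronal nuclei it was at 138 in both replicates early and at 209 and 255 CPM late. The levels of the 2 tissues thus crossed between the stages, and the difference was -2.53 ± 0.25 (adjusted p = 0.000827, edgeR). Dtg, a target gene of the BMP ligand Dpp, crossed as well. It fell from 762 and 670 to 280 and 372 CPM in mesoderm and rose from 159 and 174 to 416 and 399 CPM in neuronal nuclei, a difference of -2.43 ± 0.28.

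The class also held members of the gene lists, of several kinds. fkh, the forkhead factor of gut and salivary gland, fell from 319 in both replicates to 213 and 195 CPM in mesoderm and rose from 56.3 and 51.7 to 101 and 97.7 CPM in neuronal nuclei. tap, a proneural-type bHLH gene, fell from 60.9 and 71.1 to 42 and 37 CPM and rose from 22.4 and 27 to 71.5 and 50.2 CPM. nerfin-1, a zinc finger gene of young neurons, moved by -0.50 ± 0.17 in mesoderm and 0.68 ± 0.17 in neuronal nuclei. sing, a myoblast fusion gene, is in the class too but 68.2% of its span is overlapped by other genes, so its counts are uncertain.

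**Figure D3:**
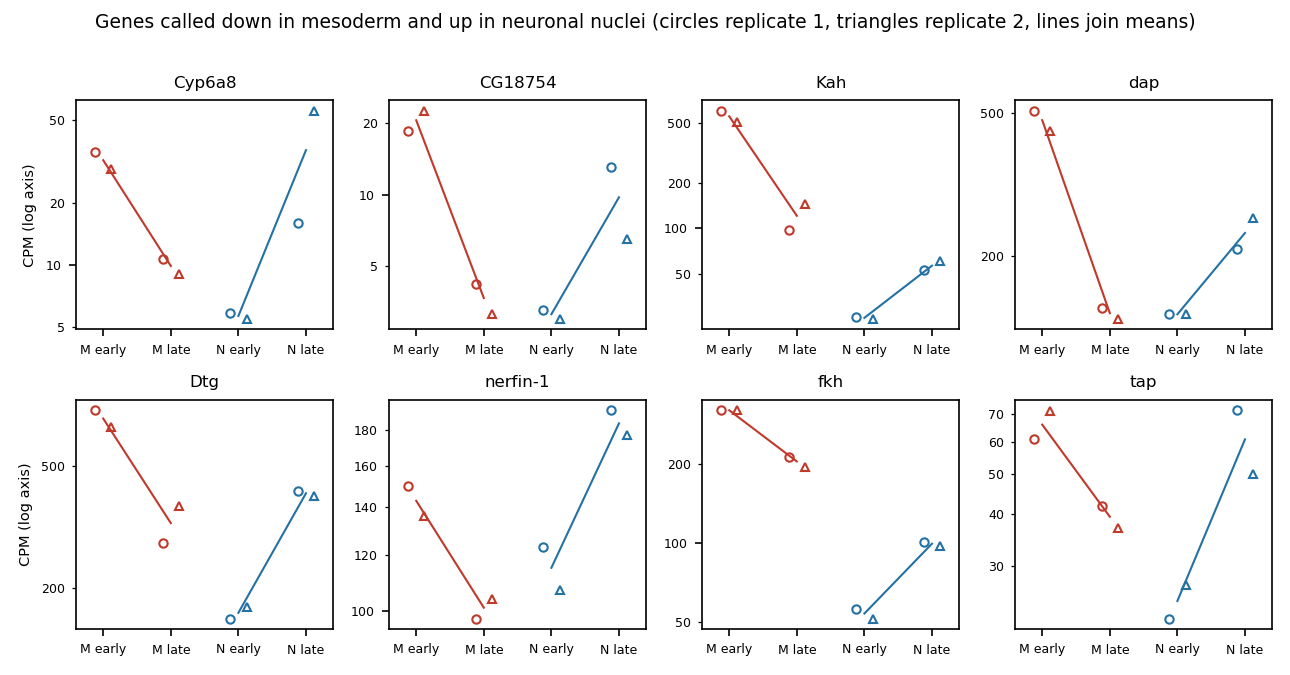
CPM per library on a log axis for 8 genes that fell in mesoderm (M, red) and rose in neuronal nuclei (N, blue), at stages 10-13 (early) and 14-17 (late). Circles are replicate 1, triangles replicate 2 and lines join group means. Group means of Cyp6a8, CG18754, dap, Dtg, nerfin-1 and tap cross between the tissues, while those of Kah and fkh are lower in neuronal nuclei at both stages.

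Where both tissues moved the same way and the sizes still differed, the larger change was nearly always mesodermal. Both tissues rose in 80 such genes, 75 with the larger rise in mesoderm (0.711% of genes tested) and 5 with the larger rise in neuronal nuclei (0.0474%). Both fell in 56, 50 with the larger fall in mesoderm (0.474%) and 6 with the larger fall in neuronal nuclei (0.0569%). The 80 became 37, 22, 28, 4, 22, 217 and 146 without, in turn, replicate 2 of the earlier mesodermal, either later mesodermal, either earlier neuronal and either later neuronal replicate. The 56 became 14, 16, 14, 20, 8, 22 and 114 without, in turn, the 4 mesodermal replicates, the 2 earlier neuronal replicates and replicate 1 of the later neuronal libraries.

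Osi16, of the insect-specific Osiris family of membrane proteins, led the shared rises. It went from 0.187 and 0.0582 to 21.8 and 8.36 CPM in mesoderm and from 3.88 and 5.46 to 25.8 and 39.4 CPM in neuronal nuclei, so that the neuronal level was higher at both stages while the mesodermal rise was larger. The difference was 4.11 ± 0.91 (adjusted p = 0.0121, edgeR), and 3.44 with an adjusted p of 0.0541 without replicate 2 of the earlier mesodermal libraries. CG43324 rose from 0.312 and 0.349 to 8.42 and 8.36 CPM in mesoderm and from 7.32 and 7.82 to 13.4 and 15.7 CPM in neuronal nuclei. CG12723 rose from 5.3 and 3.43 to 203 and 101 CPM and from 66.4 and 80.3 to 243 and 295 CPM. The blood cell genes NimB1, NimB2, NimB3 and NimB4, side by side at 2L 13963507 to 13969976, were all in this class.

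Few genes changed more in neuronal nuclei in the same direction. ZnT35C, a zinc transporter gene, rose from 64.4 and 81.3 to 254 and 301 CPM in mesoderm and from 20 and 31.1 to 352 and 213 CPM in neuronal nuclei. Its difference of -1.54 ± 0.44 (adjusted p = 0.0303, edgeR) lost its call when any of 5 single libraries was left out, with adjusted p-values of 0.0535 and 0.0948 without the earlier mesodermal replicates, 0.119 and 0.0733 without the later ones and 0.0825 without replicate 1 of the earlier neuronal libraries. CG5958 (-0.79 ± 0.26, adjusted p = 0.0499, edgeR) lost its call without any library other than replicate 2 of the later neuronal group, with adjusted p-values of 0.0628 to 0.151. It was not called either with library totals alone (0.0655), with limma-voom (0.0536), without a filter (0.0565) or with a stricter one (0.053). FBgn0259697, which has no symbol in the annotation, differed by -1.15 ± 0.33 and had adjusted p-values of 0.0539 to 0.0973 without any 1 of the mesodermal or earlier neuronal libraries.

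Among shared falls, ato, a proneural bHLH gene, went from 12.8 and 13.2 to 0.238 and 0.27 CPM in mesoderm and from 2.88 and 3.8 to 0.834 and 0.635 CPM in neuronal nuclei. Its difference was -3.48 ± 0.52 (adjusted p = 0.00267, edgeR). CG4440 fell from 195 and 172 to 2.3 and 3.69 CPM and from 37.1 and 86.5 to 16.6 and 20.4 CPM, and CG15480 fell from 45.4 and 47.5 to 0.794 and 1.71 CPM and from 5.79 and 8.98 to 2.96 and 2.94 CPM. CG14324 was the exception with a far larger neuronal fall, from 103 and 123 to 0.699 and 0.502 CPM, beside 6.79 and 4.89 to 1.19 and 1.8 CPM in mesoderm, a difference of 5.56 ± 0.45. The next in that small class, CG11000 and HisT, differed by 1.39 ± 0.38 and 1.34 ± 0.34. CG11000 lost its call without any 1 of the mesodermal libraries or replicate 1 of the earlier neuronal ones (adjusted p = 0.0659 to 0.0868), and HisT without either earlier mesodermal replicate, replicate 1 of the later mesodermal or replicate 1 of the earlier neuronal libraries (adjusted p = 0.0713 to 0.096).

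Most genes with a called difference had a called stage change in 1 tissue only. Mesoderm alone was called for 2318 genes, 1173 up (11.1%) and 1145 down (10.9%), and the neuronal libraries alone for 475, 166 up (1.57%) and 309 down (2.93%). A further 90 positive (0.853%) and 132 negative differences (1.25%) had no stage change called in either tissue. Without, in turn, the earlier mesodermal replicates 1 and 2 and the later replicate 1, mesoderm alone held 1456, 1482 and 1236 genes. The neuronal libraries alone held 280, 284, 282, 131, 289 and 1092 without replicate 1 of the earlier mesodermal, either later mesodermal, either earlier neuronal and replicate 1 of the later neuronal libraries. Genes called up in mesoderm alone had a median span of 5.97 kb and went from a median of 7.14 to 38.8 CPM in mesoderm, beside 32.9 and 26.5 CPM in neuronal nuclei. Genes called down in mesoderm alone had a median span of 2.39 kb, and 941 of the 1145 were highest in mesoderm at stages 10-13.

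By size of the fitted difference, CG31706, MFS9 and CG7080 led the rises called in mesoderm alone. MFS9 was at 0.374 and 0.233 CPM early and 10.8 and 8.9 CPM late in mesoderm, and its neuronal libraries scattered from 104 and 85 CPM early to 8.1 and 58.8 CPM late. Its difference was called by edgeR (6.51 ± 1.28, adjusted p = 0.00789) and not by limma-voom (adjusted p = 0.052). CG7080 rose from 2.74 and 0.116 to 24.7 and 17.4 CPM, with a difference of 6.18 ± 1.19 that was 9.65 without replicate 1 of the earlier mesodermal libraries. CG31706 had 0 counts in both earlier mesodermal libraries and 1.35 and 0.63 CPM later, at least 5.47-fold higher against a floor of 3 counts per library, which covers counting error only. Its place in the order rests on a fitted value that depends on the prior count, so that value is not given.

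The falls called in mesoderm alone included BobA of the Bearded family, from 41.3 and 47 to 0.318 and 1.08 CPM beside 4.19 and 9.31 to 4.76 and 3.08 CPM in neuronal nuclei (difference -5.22 ± 0.78). CG13793 fell from 45 and 36.1 to 1.67 and 1.98 CPM, with 0.368 to 1.13 CPM in the neuronal libraries. CG31373 fell from 11.8 and 9.49 to 1.11 and 0.36 CPM, while its neuronal libraries went from 2.6 and 3.49 to 4.33 and 13.5 CPM without a call. Among neuronal rises, the P450 gene Cyp6a16 went from 4.1 and 5.25 to 51.7 and 27 CPM with 28.4 to 32.5 CPM in all mesodermal libraries, a difference of -3.16 ± 0.45 (adjusted p = 0.00223, edgeR). CG1773 rose from 1.44 and 1.81 to 8.15 and 7.19 CPM beside 11.1 to 16.8 CPM in mesoderm, and CG8028 rose from 14.5 and 10.5 to 28.8 and 60.2 CPM. The falls called in neuronal nuclei alone with the largest fitted difference, a measure that favours genes near 0 in mesoderm, were of TwdlJ, CG32248 and CG3355. TwdlJ fell from 126 and 141 to 2.45 and 0.234 CPM with 0 to 0.635 CPM in mesoderm, CG32248 from 54.6 and 62.8 to 0.403 and 0.736 CPM, and CG3355 from 243 and 550 to 5 and 2.74 CPM. In mesoderm CG32248 and CG3355 were under the floor at both stages, so no mesodermal fold is given for them, and the calls of the difference for CG3355 and TwdlJ did not survive leaving out replicate 1 of the later mesodermal libraries (adjusted p = 1 and 0.0554), nor that for CG3355 without either earlier one (0.0544 and 0.0551).

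Gene lists were read against the share called among all tested genes, 20.6% positive and 14.7% negative, and against the median difference of all tested genes, -0.11. The lists were assembled with earlier results of these data known, so their counts describe and test nothing. Lists of the contractile apparatus, of neuronal excitability and of cuticle leaned positive, and lists of cell division and of Notch targets leaned negative.

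**Figure D4:**
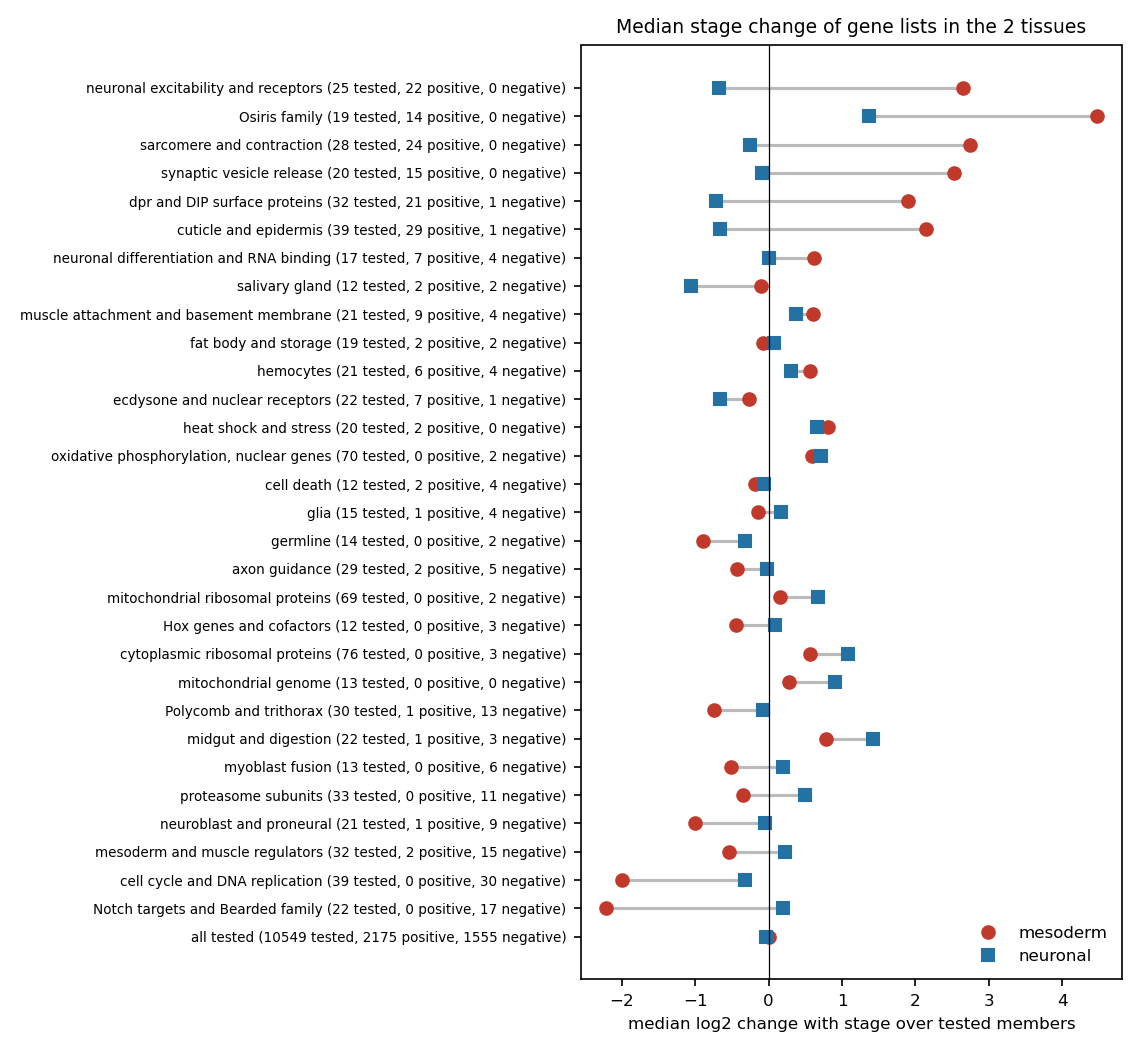
Median log2 change with stage over the tested members of each gene list, in mesoderm (red circles) and neuronal nuclei (blue squares), with the number tested and the numbers with a positive or negative difference called. The contractile list lies at 2.74 in mesoderm and -0.25 in neuronal nuclei, and the cell cycle list at -1.99 and -0.32.

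Muscle structure moved in mesoderm. Of 28 tested contractile genes, 24 (85.7%) had a positive and 0 a negative difference, with a median difference of 3.01. In mesoderm 25 rose, and in neuronal nuclei 1 rose and 5 fell. Mhc, the muscle myosin heavy chain, was at 926 and 628 CPM in mesoderm early and 11837 and 11273 CPM late, beside 2784 and 2276 CPM in neuronal nuclei early and 1823 and 1851 CPM late. Muscle myosin RNA was thus present in the neuronal libraries at more than the early mesodermal level, and the difference was 4.36 ± 0.39 (adjusted p = 0.000744, edgeR). bt, another giant sarcomere protein, rose from 1262 and 1097 to 14479 and 17152 CPM in mesoderm and moved by -0.55 ± 0.28 in neuronal nuclei, a difference of 4.29 ± 0.42.

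Regulators of mesoderm and muscle with a called difference were mostly negative. Of 32 mesoderm and muscle regulators, 15 (46.9%) had a negative difference and 2 a positive one, and in mesoderm 15 fell and 4 rose, while 4 rose in neuronal nuclei. lmd, a zinc finger factor of fusion-competent myoblasts, fell from 609 and 534 to 70.9 and 111 CPM in mesoderm and was between 24.4 and 28.6 CPM in neuronal nuclei. Six4, a homeobox gene of mesoderm, fell from 51 and 41.9 to 5.72 and 5.31 CPM, a difference of -3.64 ± 0.35. The 2 positive ones were bs, the fly serum response factor, overlapped over 55.7% of its span, and H15, a T-box gene that lost its call without replicate 1 of the later mesodermal libraries (adjusted p = 0.0616). Without that library the positive count was 1, and without replicate 1 of the later neuronal libraries it was 5. Myoblast fusion genes had 6 negative and 0 positive differences of 13, among them sns, the adhesion receptor of fusion-competent myoblasts, which fell from 2454 and 2001 to 719 and 916 CPM in mesoderm and was between 110 and 149 CPM in neuronal nuclei, and blow, with -1.37 ± 0.26.

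Mef2 and twi, which mark the tissue, did not pass the test of the difference. Each had a stage change called in mesoderm and not in neuronal nuclei. In mesoderm Mef2 fell, with a log2 change of -0.57 ± 0.19 (adjusted p = 0.0405, edgeR), and twi rose, with 1.05 ± 0.28 (adjusted p = 0.0163, edgeR). Mef2 was at 1277 and 1003 CPM early and 786 and 746 CPM late in mesoderm, and at 190, 174, 176 and 162 CPM in the neuronal libraries. Its difference was -0.46 ± 0.27 (adjusted p = 0.213, edgeR). twi was at 371 and 437 CPM early and 879 and 800 CPM late in mesoderm and at 4.44 to 10.6 CPM in neuronal nuclei, a difference of 0.43 ± 0.39 (adjusted p = 0.42, edgeR), with 60.8% of its span overlapped by other genes.

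Genes of the extracellular matrix leaned positive. Of 21 genes of muscle attachment and basement membrane, 9 had a positive difference (42.9%, beside 20.6% over all genes). Collagen IV was among them: Col4a1 rose from 281 and 248 to 2711 and 2516 CPM in mesoderm and went from 683 and 614 to 870 and 1000 CPM in neuronal nuclei, and vkg, the other chain, differed by 2.45 ± 0.27. The 4 negative ones (19%, near the 14.7% over all genes) were the laminin genes LanA, LanB1, LanB2 and wb. LanB2 was at 1608, 1576, 1604 and 1678 CPM across the mesodermal libraries and rose from 382 and 389 to 875 and 913 CPM in neuronal nuclei, a difference of -1.17 ± 0.25 (adjusted p = 0.0109, edgeR). wb moved by -0.36 ± 0.17 in mesoderm and rose by 0.69 ± 0.17 in neuronal nuclei. The negative count was 1 without replicate 1 of the later mesodermal libraries, with LanB2 at an adjusted p of 0.0534, and without either earlier mesodermal replicate, replicate 2 of the later or replicate 2 of the earlier neuronal libraries it was 2.

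Many genes of the differentiated neuron rose in mesoderm, where 24.9% of all tested genes rose. None on the 2 lists below was called up in neuronal nuclei, where only 8.47% of all tested genes were. Of 20 genes of synaptic vesicle release, 15 (75%) had a positive and 0 a negative difference, with 15 called up in mesoderm and 0 up and 1 down in neuronal nuclei. Of 25 genes of neuronal excitability and transmitter receptors, 22 (88%) had a positive difference and a median of 3.78, and 14 did without replicate 1 of the later mesodermal libraries. VGlut, the vesicular glutamate transporter, was at 2.8 and 1.92 CPM in mesoderm early and 44.1 and 28.3 CPM late, and at 42.7, 33.6, 36.2 and 21.8 CPM in the neuronal libraries. The later mesodermal libraries therefore reached the range of the neuronal ones, and the difference was 4.33 ± 0.51 (adjusted p = 0.00122, edgeR). Vmat, the vesicular monoamine transporter, rose from 7.91 and 5.18 to 50.8 and 36.6 CPM in mesoderm and fell from 139 and 95.5 to 34.9 and 28.4 CPM in neuronal nuclei (difference 4.63 ± 0.44). Ih, a hyperpolarisation-activated channel, rose from 17.6 and 18.6 to 59.2 and 50.4 CPM and fell from 189 and 128 to 29.6 and 31.1 CPM (difference 3.98 ± 0.33). nrv3, a subunit of the sodium pump, rose from 11 and 8.5 to 162 and 97.3 CPM in mesoderm, beside 159, 141, 80 and 100 CPM in the neuronal libraries. This list also holds 5 glutamate receptor genes of the muscle side of the synapse, GluRIIA to GluRIIE, all with positive differences. The neuronal marker sums given above rose in mesoderm over the same stages, and their part in these counts was not tested.

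Surface proteins of synaptic partner choice also had many positive differences. Of 32 dpr and DIP genes, which encode interacting immunoglobulin proteins, 21 (65.6%) had a positive difference and 1 a negative one, and 21 rose in mesoderm while 6 fell in neuronal nuclei. Split by family after values were seen, 16 of 21 dpr and 5 of 11 DIP genes were positive. All 6 that fell in neuronal nuclei were dpr genes. Summed dpr CPM rose in mesoderm from 221 and 204 to 662 and 628. The DIP sum went from 385 and 387 to 354 and 301 CPM. dpr10 rose from 26 and 14.8 to 198 and 204 CPM in mesoderm and fell from 48 and 38.3 to 19.6 and 8.86 CPM in neuronal nuclei, a difference of 4.90 ± 0.59 (adjusted p = 0.00128, edgeR). dpr2 rose from 0.187 and 0.291 to 5.96 and 3.42 CPM and differed by 5.52 ± 0.69. The negative one was DIP-alpha, 46.2% of whose span is overlapped by other genes.

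The list of neuronal differentiation and RNA binding divided, with 7 positive (41.2%) and 4 negative (23.5%) of 17. The 17 include Hsp23, which is also on the heat shock and stress list. Rbp9, an RNA-binding protein of the Elav family, rose from 22.9 and 28.2 to 146 and 120 CPM in mesoderm and moved by -0.22 ± 0.20 in neuronal nuclei. Positive members numbered 4 without replicate 1 of the later mesodermal libraries, and negative members 2 without that library, replicate 2 of the same group, replicate 1 of the earlier mesodermal or replicate 2 of the earlier neuronal libraries. Neuroblast and proneural genes leaned negative, with 9 of 21 (42.9%) and 1 positive, and 14 of them fell in mesoderm and 3 in neuronal nuclei. D, a Sox factor of neuroblasts, fell from 110 and 107 to 27.2 and 33.7 CPM in mesoderm and was at 51.3, 45.5, 39.6 and 38.2 CPM in neuronal nuclei. The 9 became 4 without replicate 1 of the later mesodermal and 14 without replicate 2 of the later neuronal libraries. nerfin-2, the positive one, was under 4 CPM in every library and lost its call without any 1 of the mesodermal or earlier neuronal libraries (adjusted p = 0.0534 to 0.127), as well as with library totals alone (0.0542) and limma-voom (0.0761).

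Of 29 axon guidance genes, 2 had a positive difference (6.9%), below the share over all genes, and 5 a negative one (17.2%), near it. robo3, a Slit receptor, rose from 9.66 and 14.1 to 144 and 117 CPM in mesoderm, beside 93.1 and 80.1 CPM early and 173 and 57.6 CPM late in neuronal nuclei, and its call was lost without replicate 1 of the later mesodermal libraries (adjusted p = 0.0551). side, a muscle-expressed guidance cue for motor axons, rose from 224 and 217 to 545 and 643 CPM in mesoderm, a difference of 2.14 ± 0.43. Toll-6 fell from 369 and 362 to 101 and 104 CPM in mesoderm, a difference of -1.31 ± 0.29, which was not called without replicate 1 of the later mesodermal libraries (adjusted p = 0.0529). The 5 negative calls ranged from 1 to 14 and the 2 positive ones from 1 to 6 over the single libraries left out, with the lowest of both without replicate 1 of the later mesodermal and the highest without replicates 2 and 1 of the later neuronal libraries.

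Most genes on the list of Notch targets and the Bearded family fell in mesoderm, where 22.7% of all tested genes fell. In neuronal nuclei 2 rose and 0 fell, where 8.47% of all tested genes rose and 12% fell. The share that rose there was thus near that over all genes. Notch signalling turns on the E(spl) repressor genes and genes of the Bearded family, which set the choice between neural and other fates. Beside such genes the list holds N, Su(H), H, mam, neur, Ser and edl, and the counts cover all of them. Of 22 tested, 17 (77.3%) had a negative and 0 a positive difference, with 17 down in mesoderm and 2 up in neuronal nuclei, at a median difference of -2.43. E(spl)m4-BFM was at 178 and 174 CPM in mesoderm early and 8.97 and 11.7 CPM late, and at 33.2, 43.5, 41.1 and 40.2 CPM in the neuronal libraries. Its mesodermal level crossed from above to below the neuronal one, with a difference of -4.18 ± 0.30 (adjusted p = 0.000512, edgeR). E(spl)m8-HLH fell from 75.3 and 81.6 to 9.85 and 11.1 CPM in mesoderm and went from 37.6 and 43.4 to 56.9 and 43.7 CPM in neuronal nuclei. On 3L 14943730 to 14982432 the 6 tested neighbours CG13465, BobA, Tom, Brd, Ocho and CG3349 were all called down in mesoderm alone.

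The cell cycle list was the other one with a strong mesodermal fall. Of 39 genes of cell cycle and DNA replication, 30 (76.9%) had a negative and 0 a positive difference. In mesoderm 38 fell, where 22.7% of all tested genes fell. In neuronal nuclei 5 fell and 1 rose, where 12% of all tested genes fell and 8.47% rose. The share of neuronal falls was thus near that over all genes. Klp61F, a mitotic kinesin, was at 163 and 140 CPM in mesoderm early and 15.3 and 18.6 CPM late, against 46.2 and 40.2 CPM in neuronal nuclei early and 28.1 and 28.7 CPM late. Its difference was -2.55 ± 0.27 (adjusted p = 0.000884, edgeR). The 1 gene of the list that rose in neuronal nuclei was dap, which restrains division.

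Osiris and cuticle genes rose in mesoderm and had different counts in neuronal nuclei. Of 19 tested Osiris genes, 18 rose in mesoderm and 8 rose and 2 fell in neuronal nuclei, with 14 positive differences (73.7%). Their summed level went from 403 and 118 to 7368 and 5231 CPM in mesoderm and from 3202 and 4291 to 7273 and 13049 CPM in neuronal nuclei. Osi17 rose from 9.78 and 6.23 to 122 and 98.6 CPM in mesoderm and was at 63.4, 58.4, 72.1 and 80.7 CPM in neuronal nuclei, and Osi24, from 11.7 and 8.21 to 116 and 91.7 CPM in mesoderm, was at 53.4, 56.5, 64.1 and 79.4 CPM in neuronal nuclei. The 14 became 9, 6, 8 and 7 without replicate 2 of the earlier mesodermal, replicate 1 of the later mesodermal, and replicates 1 and 2 of the earlier neuronal libraries. Osi5, Osi6, Osi7 and Osi8 (3R 6227512 to 6256602) were a run of neighbours called up in mesoderm alone. On the cuticle and epidermis list 29 of 39 (74.4%) had a positive and 1 a negative difference, and 30 rose in mesoderm while 18 fell in neuronal nuclei. f, an actin-bundling protein of epidermal bristles and hairs, rose from 23.9 and 18.5 to 199 and 137 CPM in mesoderm, a difference of 3.65 ± 0.36. cyr, a zona pellucida domain gene, rose from 7.6 and 7.62 to 35.5 and 36.3 CPM in mesoderm and fell from 32.8 and 42.4 to 24 and 22.5 CPM in neuronal nuclei. The negative one was sn, the fly fascin, at -1.27 ± 0.24.

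**Figure D5:**
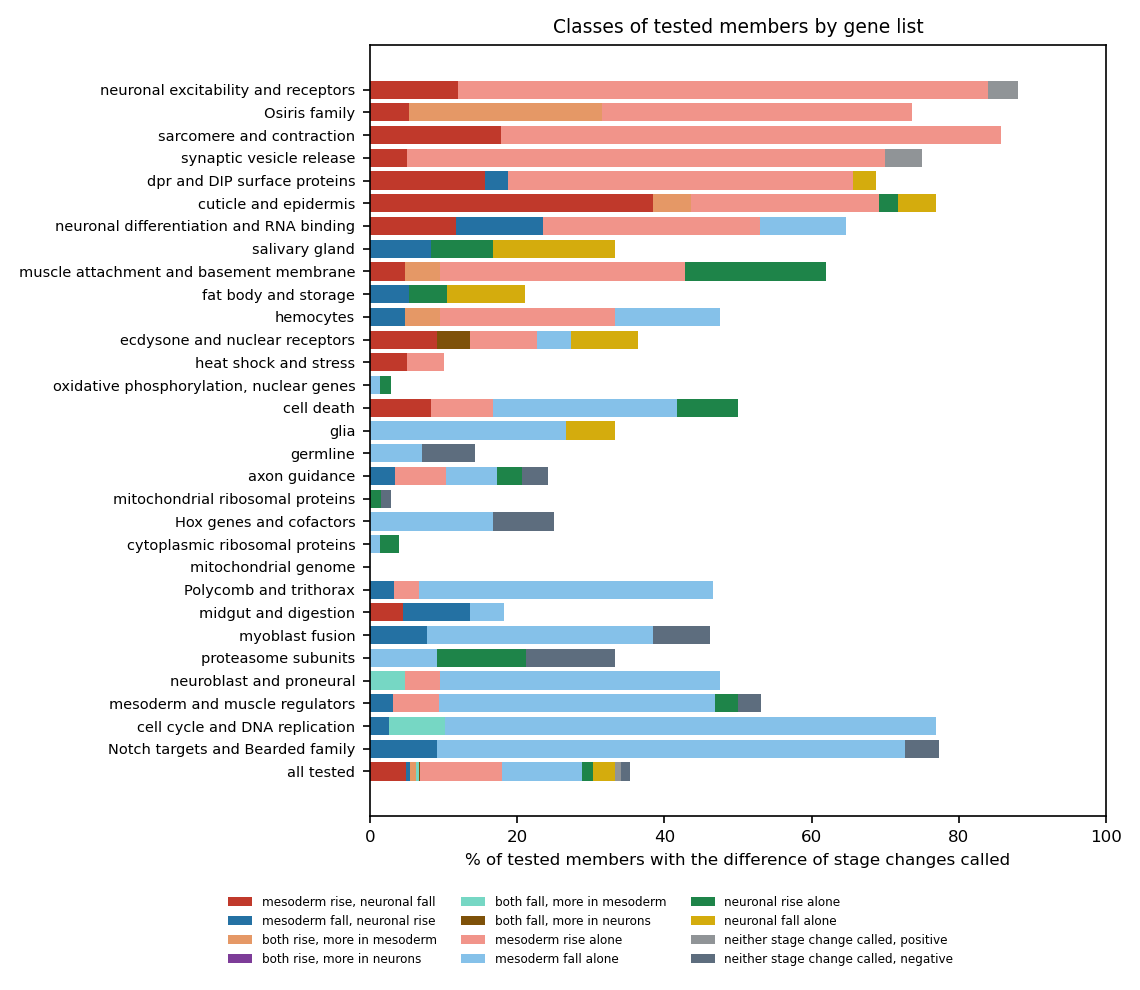
Share of the tested members of each gene list that had a called difference of stage changes, split by the calls in each tissue (colours). Cuticle and epidermis has the longest segment of genes that rose in mesoderm and fell in neuronal nuclei, 15 of 39, while cell cycle and Notch target lists are mostly falls called in mesoderm alone.

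Chromatin and Hox genes showed small differences. Of 30 Polycomb and trithorax group genes, 13 (43.3%) had a negative difference and 1 a positive one, and 21 fell in mesoderm. Snr1, a subunit of the Brahma remodelling complex, fell from 75.2 and 78.4 to 30.7 and 38.4 CPM in mesoderm beside 68.8, 81.7, 103 and 91 CPM in the neuronal libraries, a difference of -1.52 ± 0.27. ph-d, of Polycomb repressive complex PRC1, differed by -1.39 ± 0.25. Su(z)2, the positive one, at 1.41 ± 0.43, lost its call without either earlier mesodermal replicate, replicate 1 of the later mesodermal or replicate 1 of the earlier neuronal libraries (adjusted p = 0.0875 to 0.136). The 13 became 8, 4 and 7 without replicate 1 of the earlier mesodermal, replicate 1 of the later mesodermal and replicate 2 of the earlier neuronal libraries. Ubx, the Hox factor the series is about, was at 876 and 837 CPM in mesoderm early and 367 and 449 CPM late, and at 117, 127, 126 and 101 CPM in the neuronal libraries. It fell by 1.07 ± 0.20 on the log2 scale in mesoderm, and its difference was -0.97 ± 0.27 (adjusted p = 0.0299, edgeR). Abd-B fell from 352 and 355 to 175 and 234 CPM in mesoderm with a difference of -1.01 ± 0.27. Both calls were lost without either earlier mesodermal, replicate 1 of the later mesodermal or either earlier neuronal replicate, at adjusted p-values of 0.0512 to 0.117 for Ubx and 0.0534 to 0.0713 for Abd-B. Of the 12 Hox genes and cofactors 3 had negative differences, 0 without either earlier mesodermal replicate, replicate 1 of the later mesodermal or replicate 2 of the earlier neuronal libraries, 1 without replicate 1 of the latter, and 6 without replicate 2 of the later neuronal ones.

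Ribosomal protein genes rose in neuronal nuclei with few called differences. Of 76 cytoplasmic ribosomal protein genes, 63 rose in neuronal nuclei and 3 in mesoderm, at medians of 1.08 and 0.56, but 3 had a negative and 0 a positive difference (3.95%). RpS15Ab, 1 of the 3, was between 16.5 and 19.4 CPM in mesoderm and rose from 18.6 and 25.6 to 54.6 and 58.5 CPM in neuronal nuclei. The 3 became 1 without replicate 1 of the earlier or either replicate of the later mesodermal libraries and 20 without replicate 1 of the later neuronal libraries. The mitochondrial ribosomal list had 2 negative differences of 69 and nuclear genes of oxidative phosphorylation 2 of 70, counts that ran from 0 to 15 and from 0 to 4 over the single libraries left out and were highest without replicate 1 of the later neuronal ones. mt:CoI, the mitochondrial genome transcript with the highest CPM, was at 5438 and 12164 CPM in the earlier and at 8059 and 21740 CPM in the later neuronal replicates, with a difference of -0.20 ± 0.78 (adjusted p = 0.858, edgeR). Of 33 proteasome subunits, 11 (33.3%) had negative differences, with Rpn7 at 40.6, 42.7, 37.6 and 33.1 CPM in mesoderm and rising from 38.6 and 42.1 to 73.1 and 107 CPM in neuronal nuclei. Those 11 became 4, 2, 1, 3 and 2 without, in turn, the 4 mesodermal replicates and replicate 1 of the earlier neuronal libraries, and 28 without replicate 1 of the later neuronal ones.

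Lists of other cell types had shares of calls on either side of those over all genes, 20.6% positive and 14.7% negative. These lists are small, and some shares, such as 13.6% negative for midgut, lay near those over all genes. The lists are therefore not ranked by them. The midgut list had 1 positive (4.55%) and 3 negative differences (13.6%) of 22, and the negative count was 10 and 5 without replicates 1 and 2 of the later neuronal libraries. The positive count was 11 without replicate 2 of that group. Vha100-4, a proton pump subunit, was the positive one, rising from 8.79 and 6.46 to 53.6 and 49.6 CPM in mesoderm and falling from 148 and 124 to 33.7 and 58.4 CPM in neuronal nuclei. Hemocyte genes had 6 positive (28.6%) and 4 negative (19%) of 21, among them Glt, a basement membrane glycoprotein, which rose from 47.4 and 25.7 to 582 and 524 CPM in mesoderm and from 109 and 111 to 209 and 224 CPM in neuronal nuclei. The scavenger receptor Sr-CI fell from 60.9 and 53.5 to 14.5 and 16.1 CPM in mesoderm, with 23.2 to 26.4 CPM in neuronal nuclei. Of 15 glial genes 1 was positive (6.67%) and 4 were negative (26.7%), the latter 2 without replicate 1 of the later mesodermal libraries. gcm, the glial determinant, fell from 65 and 68.2 to 14.8 and 20 CPM in mesoderm and was between 32 and 38.6 CPM in neuronal nuclei. The fat body list of 19 and the salivary gland list of 12 each had 2 positive and 2 negative differences (10.5% and 16.7% in either direction), and the germline list of 14 had 0 positive and 2 negative ones (14.3%). Over the single libraries left out, the fat body counts ran from 0 without replicate 1 of the later mesodermal libraries to 5 positive and 6 negative without replicates 1 and 2 of the later neuronal libraries. The salivary gland counts ran from 0 to 4 positive and from 1 to 2 negative, and the germline negative count from 0 to 2. Heat shock and stress genes had 2 positive differences of 20 and 0 negative ones.

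The ecdysone and cell death lists had calls in both directions. Of 22 genes of ecdysone signalling and nuclear receptors, 7 (31.8%) had a positive and 1 a negative difference, and 6 fell in neuronal nuclei. The 22 include the gene lost, which was reached through the symbol nvd. The negative count was 6 without replicate 1 of the later neuronal libraries. Beside Eip74EF, the nuclear receptor gene Eip78C rose from 81.5 and 80.9 to 334 and 335 CPM in mesoderm and ranged from 49.5 to 63.7 CPM in neuronal nuclei, a difference of 2.16 ± 0.25 (adjusted p = 0.00114, edgeR). The negative one was dib, an enzyme of ecdysone synthesis, at -3.79 ± 0.84, which was not called without replicate 1 of the later mesodermal (adjusted p = 0.0593) or replicate 1 of the earlier neuronal libraries (0.0513). Of 12 cell death genes, 2 were positive (16.7%) and 4 negative (33.3%), beside 20.6% and 14.7% over all genes. The positive share is thus near that over all genes. hid, a killer gene, fell from 244 and 212 to 109 and 127 CPM in mesoderm. Diap1, a caspase inhibitor, rose from 264 and 231 to 457 and 442 CPM in neuronal nuclei.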

How the data were processed

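RNA of INTACT-isolated nuclei was counted per gene. The authors deposited raw read counts per gene. The submitters' processing notes list HTSeq and FastQC, beside BDGP6 and dm6 as builds. No source used here gives the aligner, strand setting or annotation, so reads of overlapping genes on opposite strands may not be told apart. Symbols and coordinates come from Ensembl release 115 on BDGP6, and 98.4% of the 14156 genes matched.

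Counts of the 8 wild-type libraries were fitted together with edgeR 4.0.16 in R 4.3.3 (TMM, filterByExpr with minimum count 10 and total 15, quasi-likelihood test, Benjamini-Hochberg 5%, 4 residual degrees of freedom, biological coefficient of variation 0.277). Errors of log2 changes are standard errors from the F statistic. The fitting was tested on simulated data. Limma 3.58.1, DESeq2 1.42.0, other scalings and filters, a replicate block and leaving out each library were alternatives; figures used Python 3.11.15 and matplotlib 3.10.9.

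The genes compared and the gene lists were chosen with earlier results of these data known. Named genes are, by size of difference, the first 5 of each opposite class and 3 of each other class with at least 10 CPM in 1 group and no overlap between stages where called, up to 2 members per list and direction by adjusted p, for a list with no call the member of highest CPM, the 5 most abundant of the opposite classes, and Ubx, Mef2 and twi. Genes overlapped over 40% of their span were passed over. Names outside this rule were chosen after values were seen.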

Additional observations from a re-analysis of the deposited data

Results flagged for a closer look

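The test of the difference itself picked out the genes of the opposite classes as changing differently in the 2 tissues, and the 5 with the largest values in each of the 2 classes, among those that met the rule for named genes, are repeated here. In log2 units the difference of stage changes was 9.22 for TwdlQ, 8.80 for CG7406, 8.57 for CG13731, 8.51 for CG10953 and 8.46 for CG7548, which rose in mesoderm and fell in neuronal nuclei. It was -4.37 for Cyp6a8, -4.11 for CG18754, -3.34 for Kah, -2.53 for dap and -2.43 for Dtg, which fell in mesoderm and rose in neuronal nuclei. With 2 libraries per group no single library could be tested for standing apart. The 5 with positive values were highest in the neuronal libraries of stages 10-13, which also held the most Tweedle RNA, and the part of that in these values was not tested.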

How the results depend on the processing

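Counts of genes called for the difference, for either stage change and for each class stayed within 1.5 times under RLE factors, library totals, limma-voom, no filter, a filter of at least 50 counts in 2 libraries, overlapped genes left out and the replicate block. DESeq2 did too, except that it put 88 genes in the class falling in mesoderm and rising in neuronal nuclei and 125 in the class rising in both. Leaving out single libraries gave 2000 to 5261 genes called, 1405 to 2783 positive and 595 to 2478 negative, 2862 to 6267 for the mesodermal and 386 to 4231 for the neuronal stage change, 138 to 871 and 0 to 227 in the opposite classes, 4 to 217 rising and 8 to 114 falling in both, 1236 to 3026 called in mesoderm alone and 131 to 1092 in neuronal nuclei alone. Signs of called genes did not change under any setting, apart from 1 gene without replicate 2 of the later mesodermal libraries. Of the 109 named genes with a called difference, 76 kept it under all 16 settings. Reversals were seen in 2 genes without a call: mt:CoI at 0.01, 0.20 and 0.60 without replicate 2 of the later mesodermal, 1 of the earlier neuronal and 2 of the later neuronal libraries, and twi at -0.02 without replicate 2 of the earlier neuronal libraries. Over single libraries left out these ranged from -0.95 to 0.60 and from -0.02 to 0.68. The cause was not tested.

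Replicate numbers did not pair the samples: deviations of same-numbered libraries correlated at -0.141 to 0.163. With the replicate block 3579 genes were called, 2129 positive and 1450 negative, of which 3440 were also called without it. Among genes named in the text, CG5958 (adjusted p = 0.0655) and CG3355 (0.0556) were not called under the block. With library totals alone the median of all genes was -0.16 in mesoderm, -0.15 in neuronal nuclei and -0.17 for the difference, against 0.00, -0.03 and -0.11.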
